A study of Mus musculus with 1152 samples.

Results

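The genes of 10 integrin subunits were followed in lymphatic endothelial cells (LECs) sorted from the nasopharynx of aged mice, where a lymphatic plexus (NPLP) lies. The set was given as a list of names: 7 α subunits (Itga1, Itga2, Itga3, Itga5, Itga6, Itga9 and Itgav) and 3 β subunits (Itgb1, Itgb3 and Itgb4), all 10 of them found among 23168 genes. The cells came from the nasopharyngeal mucosa of aged C57BL/6 mice of both sexes, whose tissue was pooled, and each well received 1 cell positive for CD31 and podoplanin, the endothelial and lymphatic proteins used as the sorting gate. Transcripts were read with Smart-seq3, a full-length single-cell method. All labelled cells formed 1 group, aged nasopharyngeal LECs, of which 56.9% were analysed here, and no label named an animal. The cells were therefore 1 pooled sample without replicates, every comparison below is a description without a test, and intervals (exact Clopper-Pearson, 95%) cover counting error only.

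Integrins are paired receptors, each made of an α and a β chain, that cross the plasma membrane and hold a cell to its matrix. The α chain largely sets the ligand: α1 and α2 bind collagens, α3 and α6 bind laminins, α5 binds fibronectin, αv binds vitronectin and other proteins with an RGD motif, and α9 binds tenascin-C, osteopontin and EMILIN1. β1 pairs with many α chains, β3 pairs with αv, and β4 pairs only with α6, a receptor that ties laminin to plectin and intermediate filaments in hemidesmosomes of epithelia. In lymphatic endothelium, β1 takes part in growth signalling through VEGFR3 when cells are stretched, and α9 is known for its need in valve leaflet formation.

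The α subunits share a short cytoplasmic motif next to the membrane, named GFFKR after its amino acids, which contacts the β tail in the resting receptor. Its coding bases are shown because they carry the family's common signature and yet differ from gene to gene. The motif was searched in translated GENCODE M21 coding sequences (build GRCm38, also called mm10) as GFF, any amino acid, then R, and it was encoded by 0.466% of 21877 protein-coding genes, among them all 7 α members, 10 other subunits and 85 genes that are no integrin. Each line gives 27 coding bases, 5′ to 3′ on the gene's strand, with the 15 bases of the motif in capitals.
Itga1: aagattGGATTCTTCAAAAGGccacta
Itga2: aagctcGGCTTCTTCAAAAGAcaatat
Itga3: aagtgcGGCTTCTTCAAGCGAgcccgc
Itga5: aagctcGGCTTCTTCAAACGTtccctc
Itga6: aagtgtGGATTCTTTAAGCGCtctagg
Itga9: aagatgGGCTTCTTCCGCAGAaggtac
Itgav: aggatgGGCTTTTTCAAACGTgtccga

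Itga9 was the only α member whose motif was not exactly GFFKR. Between genes, 11 (Itga6 and Itga9) to 21 (Itga3 and Itga5) of the 27 bases were identical. Itga2 and Itga9 matched at 18. Itga1 and Itga2, both of collagen receptors, matched at 19, as did Itga1 with Itga5, Itga2 with Itga5, Itga3 with Itga6 and Itga5 with Itgav. Every stretch crossed an exon junction, so its genomic span includes an intron. On the minus strand lie those of Itga1 (chr13:114960111-114965600), Itga2 (chr13:114836542-114837095), Itga3 (chr11:95046567-95046923) and Itga5 (chr15:103345329-103345954). On the plus strand lie those of Itga6 (chr2:71849504-71855877), Itga9 (chr9:118887881-118897257) and Itgav (chr2:83803000-83803263). In all but Itga3 the first of its exons was the last but 1 of the transcript. The longest run of identical bases between transcripts of any pair of members was 43 bases, in Itga1 with Itga2 and with Itga9, where it is a CA repeat, and Itga2 and Itga9 shared 41. Outside these 3 pairs the longest was 28 bases, between Itga2 and Itgb3.

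The genes themselves are protein-coding and spread over 6 chromosomes of mm10. Itga1 (chr13:114953096-115101964) and Itga2 (chr13:114833081-114932100) are neighbours on the minus strand, and Itga3 (chr11:95044474-95076801) and Itga5 (chr15:103344286-103366763) are also on that strand. The others are on the plus strand: Itga6 (chr2:71745616-71858416), Itgav (chr2:83724397-83806916), Itga9 (chr9:118606690-118901003), Itgb1 (chr8:128685654-128733200), Itgb3 (chr11:104608000-104670476) and Itgb4 (chr11:115974709-116008412). An antisense gene overlapped 5.90% of the exon bases of Itgav (Gm13684) and 7.66% of those of Itgb4 (B230344G16Rik), and whether reads were counted by strand is not stated, so reads there could belong to either gene.

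Depth was uneven, with 7046 reads in the shallowest cell, 148202 in the median cell and 10727631 in the deepest, and 2006 to 7679 genes were detected in a cell. Of the markers that fit the label, the lymphatic and endothelial genes Prox1, Flt4, Mmrn1, Pdpn, Pecam1, Cdh5 and Lyve1 were read in 94.8% (Pdpn) to 100% (Flt4 and Mmrn1) of cells. The epithelial markers Epcam and Krt18 had 0 reads in every cell, which leaves room for a read in at most 0.457% of cells and does not limit cells that express them below detection, and the leukocyte marker Ptprc was read in 0.915% of cells. Cd68 (12.8%) was the only 1 of 5 haematopoietic markers above 10% of cells. Of 6 genes listed as blood endothelial markers, Emcn (96.2%), Aqp1 (96.04%), Plvap (65.9%), Cd34 (35.5%) and Vwf (10.4%) were read in at least 10% of cells. The remaining gene, Flt1, was in 2.44%. Of 5 fibroblast markers only Dcn (30.03%) reached 10% of cells. The cells' numbers were cut into 12 blocks of 96 consecutive numbers, 18 to 83 cells each here, to show spread. These blocks are neither plates nor replicates by any label.

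Of the 10 subunits, 9 were detected (at least 1 read) in at least 10% of cells, 7 in more than 50%, and Itga2 in almost none. Of all 23168 genes, 9666 were in at least 10% of cells and 2724 in at least 50%. The median share of the subunits was 54.7% of cells, against 5.03% over all genes of the table. The subunits were chosen with earlier results of these data known, so these contrasts are not independent of that choice. Itgb1, the common β chain, was read in 88.4% of cells (580 cells, interval 85.7% to 90.8%). Among the α chains, Itga9 was read most widely (74.8%, 71.3% to 78.1%), followed by the fibronectin receptor chain Itga5 (63.6%, 59.8% to 67.3%). A middle group lay between 48.5% and 57.5%: Itgb4, Itgb3, Itga1, Itga6 and Itgav, in that order, and the intervals of neighbours in this group overlapped. Itga3 was read in 26.2% of cells (22.9% to 29.8%) and Itga2 in 11 cells (1.68%, 0.840% to 2.98%).

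These shares moved with depth. From the lowest tertile of cells by depth (up to 56370 reads) to the highest (from 357177 reads), the share with Itgav went from 26.03% to 66.2%, with Itga6 from 31.05% to 73.5% and with Itgb1 from 78.1% to 97.3%. Itga2 was at 0.913% in both and at 3.21% in the middle tertile. The mean level moved far less, being 0.210 and 0.227 for Itgav and 0.997 and 1.08 for Itgb1 (natural log of 1 plus reads per 10000, the deposited scale). Shares were therefore also taken after each cell with at least 20000 reads was thinned to exactly 20000, which kept 86.6% of cells and left out 88 cells. Itgb1 was then read in 79.05% of cells (75.5% to 82.3%), Itga9 in 57.7%, Itga5 in 49.6%, Itgb4 in 42.6%, Itga1 in 39.8%, Itga6 and Itgb3 in 37.3% each, Itgav in 27.8%, Itga3 in 15.8% and Itga2 in 1.06%.

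**Figure D1:**
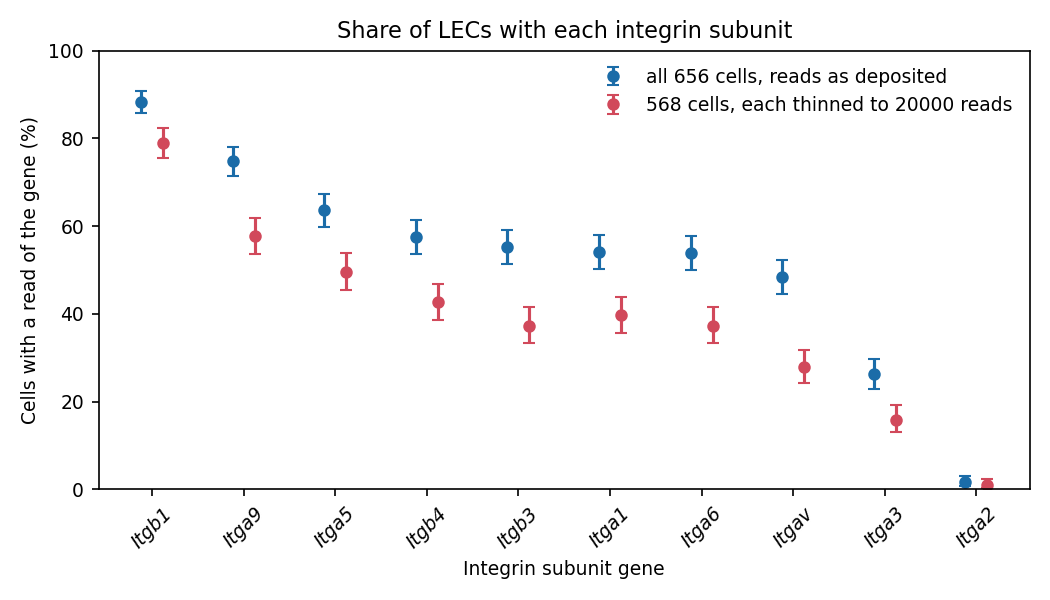
Share of cells with at least 1 read of each integrin subunit (vertical axis, %; genes on the horizontal axis), for all cells as deposited and for the cells thinned to 20000 reads; bars are exact 95% intervals. Itgb1 is highest at 88.4% and 79.05%, Itga2 lowest at 1.68% and 1.06%, and thinning lowers every subunit.

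The lowest value of every subunit over the cells was 0. On the deposited log scale, Itgb1 had a median of 1.04 and a highest value of 2.67, and it was the only subunit whose median cell exceeded 1. Itga9 had a median of 0.554 and a highest value of 2.78. Itga5 had a median of 0.237 and a highest value of 2.86. The medians of Itgb4 (0.0590), Itga6 (0.0374), Itgb3 (0.0300) and Itga1 (0.0183) were close to 0, yet the highest cells reached 3.43, 2.21, 2.58 and 3.18, so these 4 genes were near 0 in a large part of the cells and high in a minority. Itgav had a median of 0 and a highest value of 1.78, the lowest maximum of the 9 widely read members. Itga3 also had a median of 0, with a highest value of 2.51, and the 10% of cells with the most Itga3 held 85.4% of its signal. For Itgb1 the top 10% held 31.2%, the most even spread of the 10, and for Itga2 they held 100%.

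To compare genes with each other, mean reads per 10000 were divided by the kilobases of exon in each gene. Itgb1 was highest at 0.576 reads per 10000 per kilobase (0.463 to 0.665 over the 12 blocks), 2.56 times the next gene, and its lowest block lay above the highest block of the runner-up. Itga5 (0.225), Itgb4 (0.219), Itga9 (0.201) and Itgb3 (0.159) followed with overlapping block ranges, and between each of these neighbours the higher gene led in only 6 or 7 of 12 blocks, so their order was not resolved. Itga3 (0.0634), Itga6 (0.0626) and Itga1 (0.0537) came next, again with no clear order. Itgav (0.0343) was above Itga2 (0.00173) in 12 of 12 blocks.

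**Figure D2:**
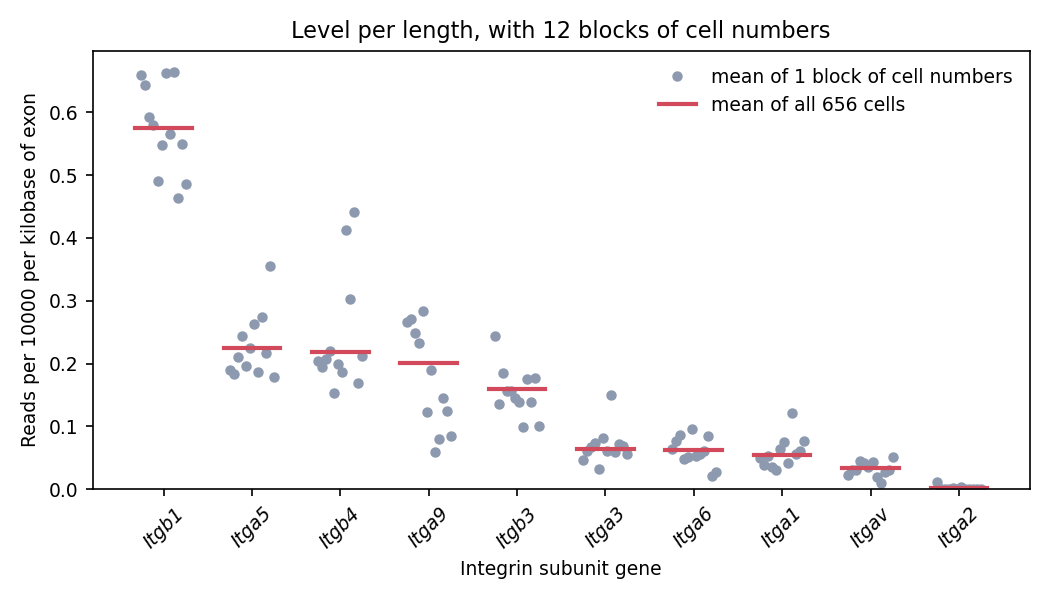
Mean level of each subunit per length (vertical axis, reads per 10000 per kilobase of exon; genes ordered by it), with grey points for 12 blocks of cell numbers and red lines for all cells. Itgb1 stands apart at 0.576, and the blocks spread from 0.0596 to 0.284 for Itga9 and from 0.152 to 0.442 for Itgb4.

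Summed per length, the 3 β genes reached 0.953 and the 7 α genes 0.641, a ratio of 1.49 that stayed above 1 in 12 of 12 blocks (1.26 to 2.11). Itgb1 alone stood at 1.06 times the sum of the α chains that pair with it and not with β3 or β4 (Itga1, Itga2, Itga3, Itga5 and Itga9), with a block range of 0.901 to 1.29. Itgb4 was 3.50 times its sole partner Itga6 (2.07 to 7.92 over blocks), and Itgb3 was 4.64 times its partner Itgav (1.94 to 17.8). With the longest transcript as the length, Itga6 rose to 0.131 and Itgb4 to 0.247, so these ratios depend on the length used. By the longest transcript, Itgb4 was 1.89 times Itga6, Itgb3 was 3.11 times Itgav, Itgb1 was 0.964 times its sum of α chains and the β genes together were 1.25 times the α genes. The shift was strongest for Itga6, which has 9.025 kb of exon in all but 4310 bases in its longest transcript. The α1 gene had the same property, at 18.599 kb and 10967 bases.

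On the deposited scale the mean of a block ranged widest for Itga9, the α chain known from valve formation, from 0.297 to 0.917. Per length it was 0.266, 0.270, 0.248, 0.233, 0.284 and 0.123 in blocks 1 to 6 and 0.190, 0.0596, 0.0797, 0.146, 0.125 and 0.0855 in blocks 7 to 12. With block 6 apart, each of the first 6 was above all of the last 6. After thinning, Itga9 was read in 63.4% of cells in blocks 1 to 6 (58.2% to 68.4%) and in 48.1% in blocks 7 to 12 (41.2% to 55.1%). Within each of the 5 clusters described below the share was also higher in blocks 1 to 6, by the widest margin in the unnamed cluster (70.1% against 47.4%, with 19 cells in the latter) and by the narrowest in the Ptx3+ capillary-like cluster (56.7% against 53.1%), and within each cluster the intervals overlapped. Median reads per cell in the blocks ran from 52583 (block 6) to 2450280 (block 8). What a run of cell numbers stands for is not given in the labels, and its part in this difference was not tested.

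Of the other 16 integrin subunits 13 were analysed here, and these were nearly unread. None was in 10% of cells, and their median share was 2.44%. The 10 members were chosen with earlier results of these data known, so the contrast with the other subunits is not independent of that choice. Itgb2, the leukocyte β chain, was highest at 5.34% of cells (3.74% to 7.34%), and Itgax, a myeloid α chain, had 0 reads in every cell (up to 0.561% by the exact interval). Itgb5, the other β partner of αv in many cells, was read in 2.44%. Itga2b, the platelet partner of β3, was read in 2.90%. The platelet genes Pf4 and Gp9 were in 0.457% and 0.762% of cells, too few to be set against Itgb3. Itgb5 and Itga2b were named after their values were seen.

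Transcripts of the proteins that link integrins to actin were mostly read. Of 21 genes of the adhesion machinery, 16 were in at least 10% of cells and the median share was 61.3%, from Ptk2b (1.07%), a kinase related to focal adhesion kinase, to Tns1 (99.2%), which encodes the actin linker tensin. The integrin-activating talin gene Tln1 was in 85.98% and the kindlin gene Fermt2 in 74.4%, whereas the blood cell kindlin Fermt3 was in 1.22%. Ilk, the scaffold kinase under β1, was read in only 1.98% of cells while its partners Parva (86.6%) and Lims1 (90.1%) were widespread. In the annotation 76.7% of the exon bases of Ilk also belong to Taf10 on the opposite strand, and how the counting treated shared bases was not tested, so its low share may not be compared with the others. The 6 genes from Tln1 to Lims1, and below Plec, Col4a2 and the genes taken as α9 ligands other than Vegfc, were also named after their values were seen.

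All 8 regulators of integrin activity were in at least 10% of cells (median 59.7%), from Itgb1bp1 (39.2%), which encodes the β1 tail-binding inhibitor ICAP1, to the endocytic adaptor Dab2 (90.1%). Among 7 tetraspanin and hemidesmosome genes the median share was 97.6%. The tetraspanin Cd9 was in 99.7% of cells and Plec, the plectin that β4 binds, in 97.6%, but the hemidesmosomal collagen Col17a1 was in 2.13%.

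Shares of ligand genes differed widely within each list. Of all 23168 genes, 9666 were in at least 10% of cells. Of 9 laminin genes 6 were in at least 10% of cells, with a median of 21.04%, from Lama2 (0.610%) to Lama4 (97.3%), an α chain of vascular laminin. Of 7 collagen genes only Col4a1 (85.4%) and Col4a2 (66.8%), of basement membrane, reached 10%, and the list's median was 2.44%, down to Col6a2 at 0.610%. Of 12 other ligands 7 reached 10% (median 39.4%), from Fn1, the fibronectin bound by α5, at 77.9% to Vegfc at 0.305%. Some genes of this list were taken here as α9 ligands, which is not a complete set. Of these, Emilin1 was read in 73.2%, Tnc in 55.8% and Spp1 in 27.6% of cells, while Vcam1 (5.34%), Svep1 (0.610%) and Vegfc were rare. The median over the 77 genes of these 7 lists was 45.7%.

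Within a cell, a median of 4 of the 10 subunits was read at 20000 reads, with a range of 0 to 8. At that depth 26.1% of cells had exactly 4 and 24.1% exactly 3, and 2 cells had none. A median of 2 α and 2 β chains was read. Itgb1 together with at least 1 of the α members was found in 74.6% of cells (70.9% to 78.2%), all 3 β chains in 14.4% (11.7% to 17.6%), none of the β chains in 7.39% and no α chain in 5.81%.

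Textbook partners were set against each other in the same thinned cells. Itga9 and Itgb1 were read together in 47.7% of cells, the most of 9 pairs, and Itgb1 was in 82.6% of cells with Itga9 (78.1% to 86.6%) against 74.2% of cells without it (68.1% to 79.6%), so the intervals overlapped. For Itga6 and Itgb4, the laminin receptor of hemidesmosomes, Itgb4 was in 50.9% of cells with Itga6 (44.01% to 57.9%) and in 37.6% of cells without it (32.6% to 42.9%), the only pair of the 9 whose intervals were apart. Itgav and Itgb3 were read together in 11.1% of cells, and Itgb3 was in 39.9% of cells with Itgav and 36.3% of those without. For Itga1 the order was the other way, as Itgb1 was in 75.7% of cells with it and 81.3% of cells without it, with overlapping intervals. For Itga3, Itga5, Itga6 and Itgav, Itgb1 was in 77.8% to 81.1% of cells with the α chain and 77.8% to 79.4% of cells without it. At 50000 reads (69.7% of cells) Itgb4 was in 55.9% of cells with Itga6 and in 40.4% without it.

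**Figure D3:**
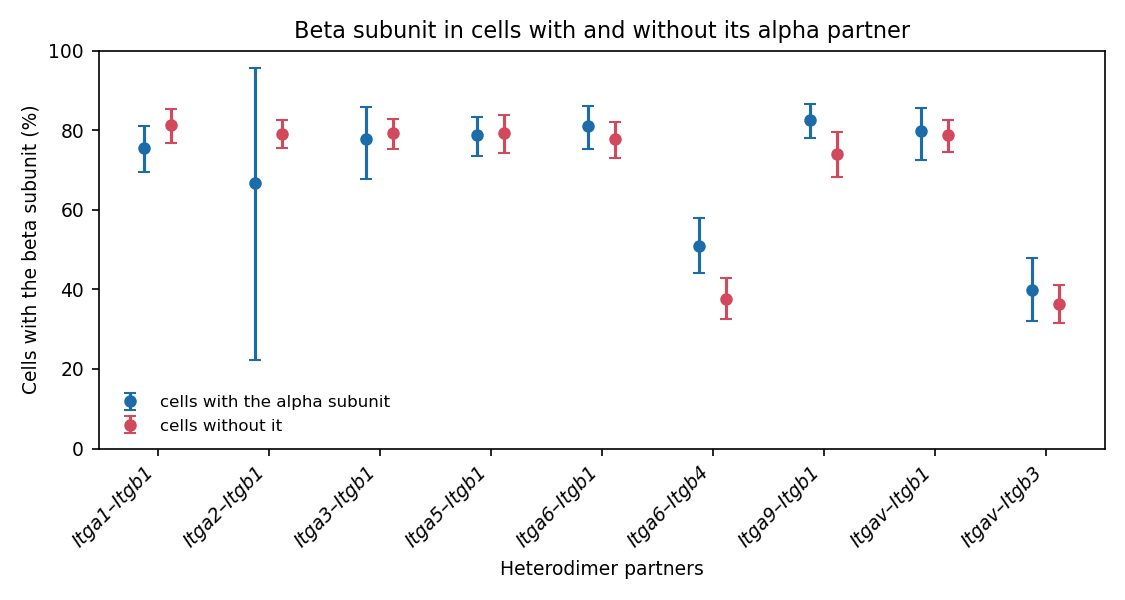
Share of thinned cells (vertical axis, %) with the β subunit of each textbook pair (horizontal axis), among cells with and without a read of the α subunit; bars are exact 95% intervals. Only Itga6 and Itgb4 have intervals apart, 50.9% against 37.6%, and the bar of Itga2 is wide because 6 cells hold it.

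Across the thinned cells, the subunits were little correlated with each other. The median Spearman rho of the 45 pairs was 0.0076, none was above 0.2, and 25 were above 0. These values share depth by construction and come from sparse counts, so they are given as description. The highest were Itga9 with Itgb1 (0.128) and Itga6 with Itgb4 (0.117), and the lowest was Itga1 with Itgb4 (-0.218), followed by Itga1 with Itga6 (-0.103). With the mean of each cluster subtracted, Itga6 with Itgb4 was 0.0013, Itga1 with Itgb4 was -0.120 and Itga9 with Itgb1 was 0.123. Subtraction sets the many 0 values of a cluster to minus its mean, so they are then ranked by cluster. These values therefore cannot show correlation within clusters.

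**Figure D4:**
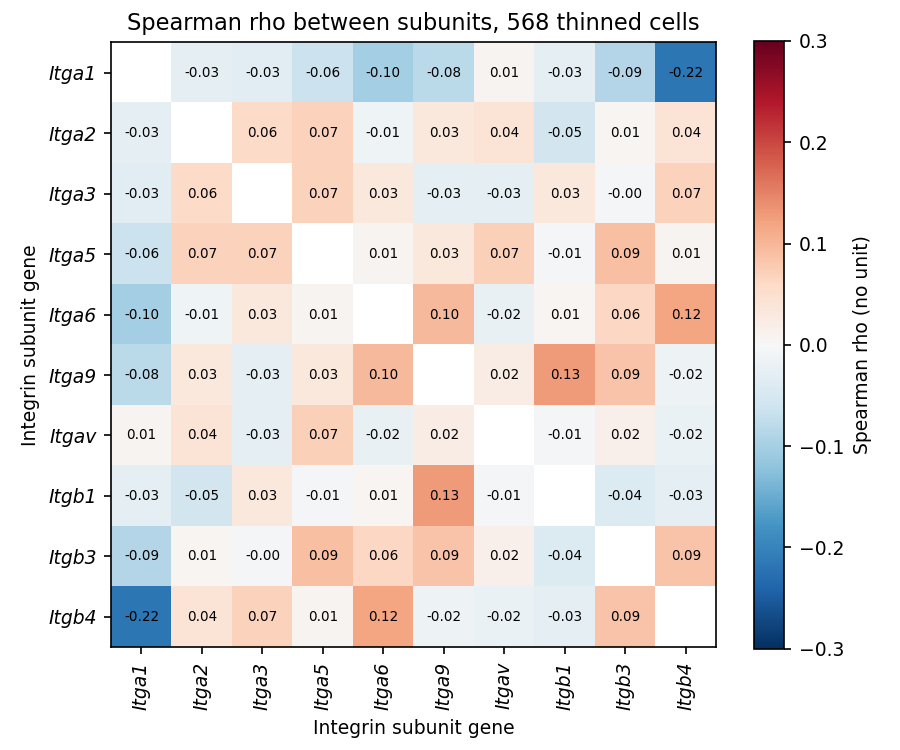
Spearman rho (colour scale, no unit) between every pair of the 10 subunits (both axes) across the thinned cells. Most squares of the grid lie near 0, and the darkest is Itga1 with Itgb4 at -0.22.

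Among 7780 genes in at least 10% of the thinned cells, the 3 with the highest rho to each subunit were listed. Each is a maximum picked from many genes over sparse counts, so the order among them is not firm. The strongest ties were to Itgb4 and Itga1, the pair that ran opposite to each other. Itgb4 was most like Bcam (0.352), which encodes the laminin α5 receptor Lutheran, then the transglutaminase Tgm2 (0.325) and Itm2c (0.324), and most unlike the capillary hyaluronan receptor Lyve1 (-0.351). Itga1 was most like the LEC matrix gene Mmrn1 (0.338), then Gm525 (0.334) and the endothelial guidance receptor Robo4 (0.322), and most unlike the intermediate filament gene Vim (-0.338). Itgb1 was closest to Mmrn1 (0.224), the talin gene Tln1 (0.222) and the protease inhibitor gene Timp2 (0.220).

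Ties of the remaining subunits were at 0.174 to 0.244. Itga6 was most like Lsr (0.216), then the plectin gene Plec (0.198) and Tgm2 (0.182). Itga9 was most like Emilin1 (0.215), whose protein it binds, then Tspan18 (0.194) and Ccdc88c (0.184). Itga5 was most like Bcl10 (0.196) and the immediate-early and stress genes Nr4a1 (0.194) and Kdm6b (0.193). Itgav was most like Neat1 (0.204), Nfat5 (0.187) and the phosphate transporter gene Slc20a1 (0.178). Itgb3 was most like Ube2g2 (0.219), Ttyh1 (0.214) and the scavenging receptor gene Ackr3 (0.199), and Itga3 was most like Abhd11 (0.190), Cpne7 (0.175) and Itm2c (0.174). For Itga2, Mkl1 (0.244), Hmgxb4 (0.220) and Plpp2 (0.186) came first, over 6 cells with a read. At 50000 reads Itga3 was at 0.0896 with Abhd11 and at 0.195 with Itm2c. Itgb4 was then at 0.354 with Bcam and at 0.372 with Tgm2, so both orders changed.

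To see how the subunits differed between kinds of LEC, the cells were clustered with all 26 integrin subunit genes left out, of which Itga1, Itgb4 and Itgb2 would otherwise have been among the variable genes. Names were rebuilt from markers and need not match those of the study. Cluster 1 (31.1% of cells) was Ptx3+ capillary-like, with Ptx3, Stab2, Mrc1, Itih5 and Stab1 raised, beside the haematopoietic marker Fcer1g and the blood endothelial markers Plvap and Aqp1. Cluster 2 (25.5%) was precollecting-like, with Foxp2, Apoe, Bmp4 and Ackr4 raised, beside the downstream valve markers Gja4 and Efnb2 and the blood endothelial markers Emcn and Vwf. Cluster 3 (15.9%), led by Tppp3, Fbln7 and Fndc1, stayed unnamed. Fndc1, which the study used with Ptn to mark Ptx3- capillary LECs, was raised in this cluster. Cluster 4 (15.4%) was Ptx3- capillary-like by Ptn, Stc1 and Anxa3, which were raised, while Fndc1 was not. Also raised there were the precollecting marker Ackr4, the fibroblast marker Dcn and the blood endothelial markers Vwf and Cd34. Cluster 5 (80 cells, 12.2%) was upstream valve-like, with Cldn11, Gata2, Neo1 and Cd24a raised, beside Stc1 and Cd34. Raised means at least 1.5 times the mean of all other cells, as defined next. Of the blood endothelial markers, Aqp1 was lower in clusters 2, 4 and 5, and Cd34 in clusters 1, 2 and 3. Plvap and Vwf were lower in clusters 3 and 5, and Emcn in cluster 5. Median reads per cell ran from 73480 in cluster 4 to 204674 in cluster 2.

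A gene was counted as higher or lower in a cluster where its mean reads per 10000, with 0.1 added, were at least 1.5 times or at most 1/1.5 of those in all other cells. Of the 9666 genes in at least 10% of all cells, 6.01% were higher and 5.17% lower in cluster 1, 3.06% and 6.12% in cluster 2, 4.82% and 8.44% in cluster 3, 3.79% and 4.99% in cluster 4, and 7.07% and 9.86% in cluster 5. Of the 9 members among them, 1 was higher and 3 were lower in cluster 1, 3 and 2 in cluster 2, 0 and 2 in cluster 3, 2 and 2 in cluster 4, and 3 and 0 in cluster 5. In all, 7 of the 9 members passed in at least 1 cluster in either direction, against 36.2% of the 9666 genes. Itga9 and Itgb1 passed in none, and Itga2 was too rare to be among the genes compared.

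The collagen receptor chain Itga1 was highest in the Ptx3+ capillary-like cells. Its mean was 1.73 reads per 10000 there and 0.668 in all other cells (ratio 2.39), and at 20000 reads it was in 65.2% of them (57.7% to 72.1%) against 13.1% (6.72% to 22.2%) in the Ptx3- capillary-like cluster. The intervals of the other 4 clusters all lay below that of cluster 1. The ratio was 2.43 within blocks 1 to 6, 2.14 within blocks 7 to 12 and 2.55 in thinned cells. In the Ptx3- capillary-like cells Itga1 had a ratio of 0.403, and in cluster 3, where Fndc1 was raised, 0.832. Blood endothelial marker reads, summed over 6 genes, were also highest in cluster 1 (mean 72.6 per 10000 against 15.7 to 30.9 in the other clusters). Plvap and Aqp1 were raised there but Cd34 was lower, and Aqp1 alone averaged 29.8 per 10000 over all cells. The part of these markers in the difference was not tested.

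The laminin receptor chains took another course. Itgb4 averaged 2.42 reads per 10000 in Ptx3- capillary-like cells (ratio 1.71), 2.12 in the precollecting-like cluster (1.55) and 2.10 in the upstream valve-like cluster (1.41, short of the limit), against 0.929 in Ptx3+ capillary-like cells (0.539) and 0.484 in cluster 3 (0.319). At 20000 reads it was in 70.2%, 58.3% and 52.2% of the first 3 groups and in 23.6% and 19.8% of the last pair, and every interval of the former lay above every interval of the latter. The study marked Ptx3- capillary LECs by Fndc1 and Ptn, and Fndc1 was raised in cluster 3. Clusters with these markers thus lay on opposite sides, and high Itgb4 cannot be ascribed to Ptx3- capillary LECs as a whole. In precollecting-like cells the Itgb4 ratio was also short of the limit in thinned cells (1.495) and within blocks 7 to 12 (1.33). Its partner Itga6 was higher in precollecting-like cells (ratio 1.67, in 47.7% of thinned cells) and lower in Ptx3+ capillary-like cells (0.640, in 25.3%), and its ratios in the others were 0.776 to 1.06. In Ptx3+ capillary-like cells the Itga6 ratio was 0.676 in thinned cells, short of the limit of 1/1.5. Itga3 was low in cluster 3, at 0.0294 against 0.425 reads per 10000 in all other cells (ratio 0.247). Its ratio of 1.75 in precollecting-like cells was 2.52 within blocks 1 to 6 and 0.926 within blocks 7 to 12, so the direction was not shared, and its ratio of 0.582 in Ptx3- capillary-like cells was 0.449 and 0.857.

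Of the subunits that bind fibronectin and RGD proteins, Itgav averaged 0.643 reads per 10000 in upstream valve-like cells and 0.330 in all other cells (ratio 1.73), and at 20000 reads it was in 55.1% (42.6% to 67.1%) against 19.2% to 27.9% in the other clusters, none of whose intervals reached 42.6%. Itgb3 averaged 1.55 and 0.854 (ratio 1.73, in 44.9% of thinned cells). It was just past the limit in Ptx3- capillary-like cells (ratio 1.51), where its thinned share was higher (52.4%) but its ratio was 1.35 within blocks 7 to 12. With no regression in the clustering the matched ratio was 1.06. The matched cluster was then precollecting-like, held 62.4% of cluster 4 and was also the match of cluster 2. Itgb3 was lower in Ptx3+ capillary-like cells (0.610, in 28.7%). Itga5 had a ratio of 1.53 in upstream valve-like cells, which was 1.48 in thinned cells, and its thinned share of 57.97% (45.5% to 69.8%) overlapped that of every other cluster and was below the 61.9% of Ptx3- capillary-like cells. Itgav was lowest in precollecting-like cells (ratio 0.561).

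Of the 9 widely read members, Itgb1 and Itga9 stayed within the limit in every one of the 5 clusters, though not at a clustering resolution of 1.5. The ratio of Itgb1 was 0.801 to 1.16 over the 5 clusters and its thinned share 74.8% to 85.7%, with all intervals overlapping. The ratio of Itga9 was 0.861 (precollecting-like) to 1.31 (Ptx3- capillary-like), and its thinned share was 46.4% in the former (38.2% to 54.6%) and 71.4% in the latter (60.5% to 80.8%), whose intervals did not overlap. Itga2 was in at most 2.38% of thinned cells of any cluster.

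**Figure D5:**
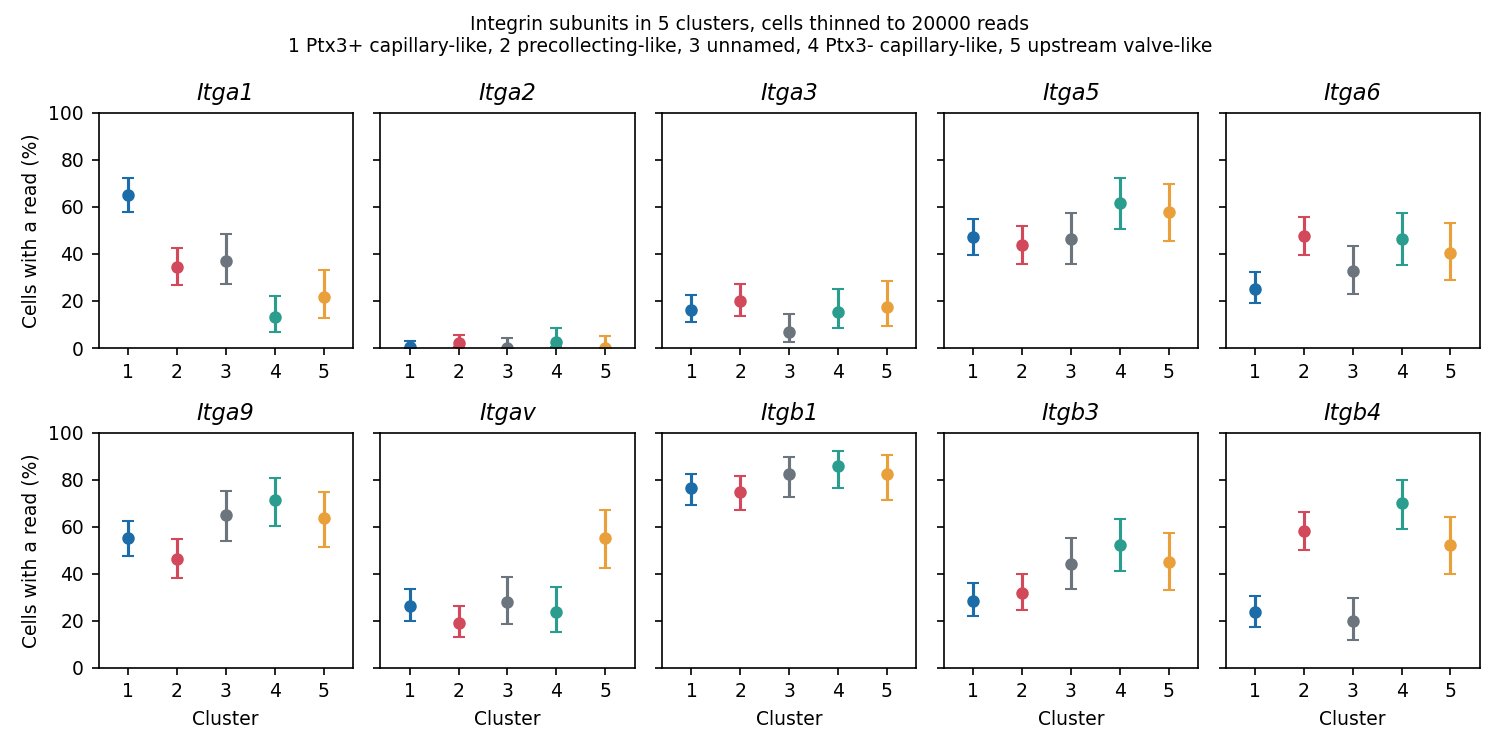
Share of thinned cells with each subunit (vertical axis, %) in the 5 clusters (horizontal axis, named in the title); points are shares and bars exact 95% intervals. Itga1 is highest in cluster 1 (65.2%), Itgb4 in cluster 4 (70.2%) and Itgav in cluster 5 (55.1%), while Itgb1 stays at 74.8% to 85.7%.

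No subunit passed 1.5 times in either direction when cells were instead split by reads of Cldn11, a valve claudin gene. In that split 1.4% of all tested genes were higher and 1.51% lower. Its ratios used all cells as deposited, of which more held a Cldn11 read than did not. The upstream valve-like cluster held only 12.2% of cells. The highest ratio was that of Itgb3 (1.36). At 20000 reads the split was made again on the thinned reads, and 43.5% of the thinned cells then held a Cldn11 read. Itgb3 was in 44.1% of these cells (37.8% to 50.6%) and in 32.1% of thinned cells without such a read (27.01% to 37.5%). Cells with Cldn11 reads as deposited were also deeper, at a median of 231256 against 85150 reads. The split as deposited thus went with depth and took in far more cells than the valve-like cluster. It therefore cannot show whether the subunits differ in valve cells.

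Markers of other cell types were set beside each subunit in the thinned cells. A read of any of 5 haematopoietic markers was found in 14.6% (Itgb3) to 20.2% (Itgb4) of cells with each of the 9 widely read subunits and in 15.03% to 20.2% of those without. Of cells with Itgb4, 0.413% held an epithelial marker read, against 0.613% of those without. Glial markers were in 6.61% of cells with Itgb4 and 3.07% without, and in 8.89% of cells with Itga3 and 3.77% without. Blood endothelial markers were in nearly all cells, and their summed level was 53.5 reads per 10000 in cells with Itga1 against 28.1 without, and 28.9 in cells with Itgb4 against 45.1 without. The part of these markers in the differences was not tested. Without the cells that held a haematopoietic or platelet marker, 76.1% of cells remained and 7 members again passed 1.5 times in at least 1 cluster. The share of all genes that passed in those cells is not given here, so this count has nothing to be set against. Leaving these cells out was chosen after the data were seen.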

How the data were processed

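The data were 1 table of 23168 genes by single LECs of aged mice. Per the paper's methods and the labels, the authors made Smart-seq3 libraries, aligned the reads to mm10 with STAR, counted them per gene with featureCounts (Subread), discarded cells below 2000 detected genes or above 10% mitochondrial reads, and normalised them with Seurat 4.1.0. Read handling at overlapping genes is not given in the sources used here. The deposited values are natural log values of 1 plus reads per 10000: the methods name base 2, but only the natural base gave 10000 per cell. Reads were not collapsed by molecule, so intervals cover counting error only. Of the labelled cells, 43.1% were not analysed here, and 0 columns of values were left unused.

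Whole reads were recovered as multiples of the smallest value above 0 in each cell (100% of values whole within 0.01 reads). No pair of cells was identical. Cells were thinned to 20000 or 50000 reads without replacement. Shares have exact Clopper-Pearson intervals at 95% (scipy 1.17.1). The limit beside a count of 0 is 3 cells of the total. Clustering in Seurat 5.3.0 (R 4.3.3) used 2000 variable genes less the integrins, regression of total reads, mitochondrial share, and dissociation and ribosomal scores, 15 principal components and the lowest resolution with at least 5 clusters. A cluster was named from at least 3 raised markers of a class, more than of any other class and not outnumbered among its top 10 genes. No doublet caller was run, as each well received 1 cell. Positions, exon lengths and sequences came from GENCODE M21, in which 22272 of 23168 symbols were found. Itgad, Itgae, Itgam, Fermt1, Lama1, Krt5, Cdh1, Ppbp, Gp1bb and Sox10 were not analysed here. There is 1 pool, so no p-value was computed. Recovery, thinning and cluster ratios were tested on simulated reads. The rho function was run only on continuous values with a planted correlation, which does not cover sparse counts.

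Named genes were the 10 members, the highest and lowest gene by share of each list, other subunits in at least 10% of cells, and the 3 genes of highest rho to each member. The members, lists and naming limits were chosen with earlier results of these data known.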

Additional observations from a re-analysis of the deposited data

How the results depend on the processing

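No paired analysis was possible because all cells belonged to 1 pooled group. With detection at a log value above 1, the median share of cells was 19.1% for the members and 7.77% for the other listed genes; after thinning to 20000 reads it was 38.6% and 27.1%, and with the 25% of cells of fewest detected genes left out 62.6% and 53.05%. The median level of the members, 0.439, became 1.24 with a pseudocount of 0.1 per 10000, another scale, and 0.677 as the log of the linear mean. By the median cell per length, 2 of 10 members kept their place in the order (Itgb1 and Itgb3), where 3 members share a median of 0. The median rho rose to 0.0840 after regression of the number of detected genes, and the cause was not tested. Regression turns the many 0 values of each gene into values ranked by the number of detected genes. The raised value therefore cannot show correlation between subunits. The median share with both partners, 22.2%, was 44.5% as deposited and 34.4% at 50000 reads. With 1 per 10000 added, which draws every ratio towards 1, 2 members (Itga1 and Itgb4) passed 1.5 times in a cluster. In the Cldn11 split, which went with depth and cannot show a difference in valve cells, 0 members passed. The share of all genes that passed with 1 per 10000 added is not given here. Without regression in the clustering, Itga3 in cluster 4 reversed from 0.582 to 1.13, where clusters 2 and 4 were matched to the same cluster. The other 24 alternatives to these summary values stayed within the spread between blocks or within 1.5 times. Of the ratios of single members, that of Itga5 in cluster 5 lost the limit in 8 of 10 alternatives, those of Itga1 in cluster 2 and Itga6 in cluster 1 in 5, those of Itgb3 in cluster 4 and Itgb4 in cluster 2 in 4, and those of Itga1 in clusters 1 and 4 kept it in 10 of 10. Depth limits the rare genes most: at 20000 reads 1 read is 0.5 per 10000, so lower levels cannot be followed in a cell.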
